A study of Drosophila melanogaster with 6 samples.

Results

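The vacuolar proton ATPase (V-ATPase) of *Drosophila melanogaster* was followed through the genes whose symbol starts with Vha. Among 11804 genes with a probe set of their own on the array, 31 met this rule, with 32 probe sets, and *Vha16-1*, the only member with more than 1, was read from its brighter probe set. The members covered all 13 kinds of core subunit, 11 genes of the V1 part and 18 of the V0 part, together with 2 accessory genes. *Vha68-1* and *Vha68-2*, the other genes of subunit A, were not analysed here, so subunit A is represented by *Vha68-3* alone.

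The V-ATPase is a rotary pump that spends ATP to move protons across membranes. In its soluble V1 part, subunits A and B bind and split ATP, D and F form the central axle, and C, E, G and H build the outer stalks that hold the motor in place. In the membrane part, V0, the ring of c and c'' subunits carries the protons, a provides their entry and exit paths, d couples axle and ring, and e is a small membrane subunit. The pump acidifies lysosomes and endosomes, loads synaptic vesicles with the proton gradient that transmitter uptake needs, and in insects energises epithelia such as the Malpighian tubule. Fruit flies carry several gene copies of many subunits, a number of them known mainly from testis.

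The study compared 3 pools of heads from flies aged 40 days with 3 pools from flies aged 10 days, all labelled female and of the wild-type strain Canton S. Each pool held 75 to 100 heads, and the labels call the pools independent biological replicates numbered 1 to 3 at each age. RNA levels were read on Affymetrix 3' expression arrays and are given as log2 GCRMA values, which run up from a lowest value of 2.06. In pooled heads, fewer cells of a type and less RNA per cell cannot be told apart.

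Markers of the male reproductive tract and of the midgut were bright in the 6 libraries, against their female head label. The 13 measured markers of the male reproductive tract had a median log2 level of 14.66, with a per-sample median from 14.56 to 14.77 at 40 days and from 14.17 to 14.69 at 10 days. The 10 ovary and egg markers all lay under 4, and their median was 2.06 in every sample. Heads of either sex hold no ovary, so in heads alone these markers would not tell the sexes apart. With male tract and midgut markers this bright, the samples cannot be taken as heads alone. What the ovary markers say about the label was not tested. Of the yolk protein genes, which are known as female-specific, *Yp2* lay under 4 at 3.61 ± 0.76, but *Yp3* at 8.86 ± 1.08 and *Yp1* at 7.29 ± 1.61 were above background (mean ± SD, n = 6). *Yp1* averaged 8.30 ± 0.64 at 40 days and 6.29 ± 1.75 at 10 days (n = 3 each), a paired difference that was not called (limma adjusted p = 0.154). Midgut markers, with *alphaTry* at 15.21 ± 0.09, were present beside photoreceptor markers, the brightest of them *Arr2* at 14.97 ± 0.07 (mean ± SD, n = 6). The median level was 14.94 over 5 midgut genes and 11.33 over 5 photoreceptor genes. Fat body and neuron markers had median levels of 14.80 over 5 genes and 7.83 over 6, with 1 neuron gene under 4. Levels below are therefore those of samples labelled female heads, and this touches every paralogue known from testis or gut.

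No V-ATPase gene lay at the floor. All 31 had a mean log2 level of at least 6.27, and 0 of 31 had a mean under 4, taken as near background, where 32% of all probe sets on the array lay. None of the 31 was at the lowest value on any array, where 19% of all probe sets lay at least once. The levels of different genes come from different probes and are described here without being ranked.

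**Figure D1:**
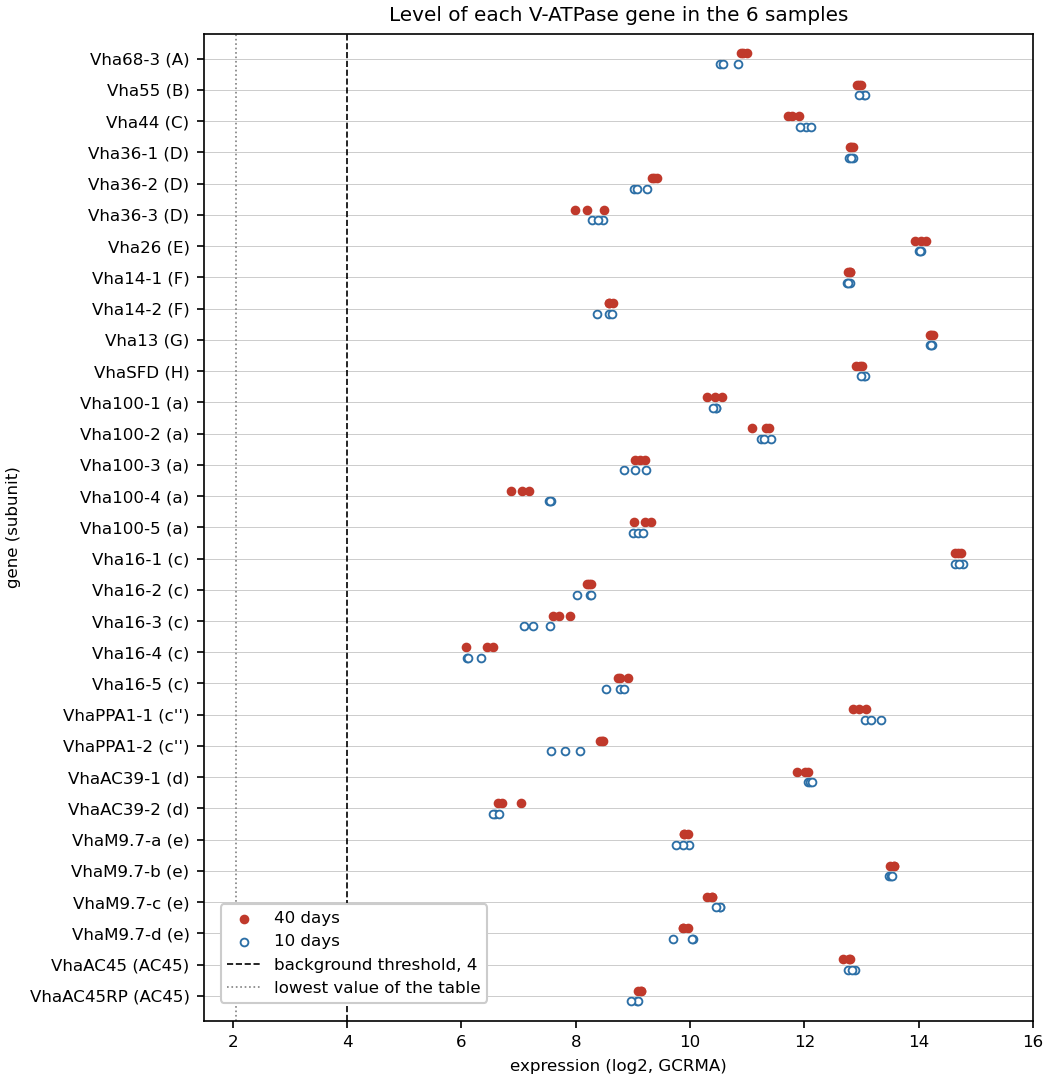
Log2 GCRMA level (x axis) of each of the 31 V-ATPase genes (rows, with their subunit in brackets) in the 3 samples of 40 days (filled, upper) and the 3 of 10 days (open, lower). Every point lies to the right of the background threshold of 4 (dashed) and of the lowest value of the table, 2.06 (dotted).

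The sole gene of a subunit, or the copy known to serve most tissues, was bright for each core subunit but A, of which no such copy was measured. In V1 these were *Vha55* (subunit B) at 12.99 ± 0.05, *Vha44* (C) at 11.91 ± 0.15, *Vha36-1* (D) at 12.81 ± 0.02 and *Vha26* (E) at 14.02 ± 0.06 (mean log2 ± SD, n = 6). *Vha14-1* (F) stood at 12.78 ± 0.02, *Vha13* (G) at 14.22 ± 0.02 and *VhaSFD* (H) at 12.99 ± 0.06. In V0 they were *Vha100-2* (a) at 11.29 ± 0.12, *Vha16-1* (c) at 14.70 ± 0.05, *VhaPPA1-1* (c'') at 13.07 ± 0.16, *VhaAC39-1* (d) at 12.04 ± 0.09 and *VhaM9.7-b* (e) at 13.52 ± 0.03. The accessory gene *VhaAC45*, whose product helps V0 to assemble, stood at 12.79 ± 0.07. These 13 genes are called general copies below. They were set apart with the values known, so their brightness is a description and not a test.

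The further copies were detected as well, in all 6 samples. In V1, *Vha68-3* (A) stood at 10.79 ± 0.19, *Vha36-2* and *Vha36-3* (D) at 9.25 ± 0.16 and 8.31 ± 0.20, and *Vha14-2* (F) at 8.56 ± 0.10 (mean log2 ± SD, n = 6). For the proton path subunit a, *Vha100-1*, the copy known for its role in neurons, stood at 10.43 ± 0.09. *Vha100-4*, known for acid secretion in the midgut, stood at 7.30 ± 0.30, *Vha100-3* at 9.08 ± 0.14 and *Vha100-5* at 9.14 ± 0.12. The ring subunit c had 4 further copies, *Vha16-2* at 8.21 ± 0.09, *Vha16-3* at 7.52 ± 0.30, *Vha16-4* at 6.27 ± 0.20 and *Vha16-5* at 8.76 ± 0.13. *VhaPPA1-2* (c'') stood at 8.13 ± 0.38 and *VhaAC39-2* (d) at 6.70 ± 0.18. For subunit e, *VhaM9.7-a*, *VhaM9.7-c* and *VhaM9.7-d* stood at 9.89 ± 0.08, 10.42 ± 0.09 and 9.92 ± 0.13. The accessory gene *VhaAC45RP*, known from neurons, stood at 9.08 ± 0.06. Across the 18 further copies the means ran from 6.27 to 10.79, and across the 13 general copies from 11.29 to 14.70. Because the split was made with these values known, the gap between the ranges tests nothing. In the RefSeq gene order, *Vha16-3* and *Vha16-2* are direct neighbours, as are *Vha100-4* and *Vha100-2*, while *VhaPPA1-2* and *VhaPPA1-1* have 1 protein-coding gene between them.

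With age, no V-ATPase gene passed the test. The 40-day and 10-day samples were compared in pairs by replicate number with limma, and p-values were adjusted by Benjamini-Hochberg over all 10286 probe sets with a mean of at least 4. Of the 31 members 0 were called at an adjusted p under 0.05, against a background of 1.92% of all tested probe sets (0.622% higher and 1.3% lower at 40 days), and the smallest adjusted p was 0.0669. Without pairing 0 were called as well, where the background was 0.34% (0.165% higher and 0.175% lower), and the smallest adjusted p was 0.144. At an unadjusted p under 0.05 the paired fit gave 7 members, 4 higher and 3 lower at 40 days, or 22.6% of 31, against 25.1% of all tested probe sets (12.9% higher and 12.1% lower). The groups did not overlap for 7 members, or 22.6%, 4 higher and 3 lower, against a background of 19.8% (11.4% higher and 8.42% lower). A count of members near the background is not a result about the V-ATPase.

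The median size of the difference was smaller for the members than for the array, but the 2 were not compared at like levels. The median log2 difference (40 days minus 10 days) was 0.01 over the 31 members and 0.01 over all tested probe sets, with 18 members above 0 and 13 below. The median size of the difference was 0.08 for the members and 0.12 for all tested probe sets, and the median SD within the 40-day samples was 0.06 for the members against 0.11 for all tested probe sets. The members were also brighter, with a median level of 10.43 against 7.52 over all probe sets. Differences ran from -0.23 to 0.04 for the general copies and from -0.52 to 0.64 for the further copies. No member differed by 2-fold or more, as 1.02% of tested probe sets did. The 95% intervals, each for its own gene and not adjusted for their number, lay within a 2-fold change for all 31 and within 0.5 log2 units for 28. The exceptions were *Vha100-4*, *VhaPPA1-2* and *Vha16-3*. A difference that missed the threshold with 3 pairs is not shown to be absent.

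**Figure D2:**
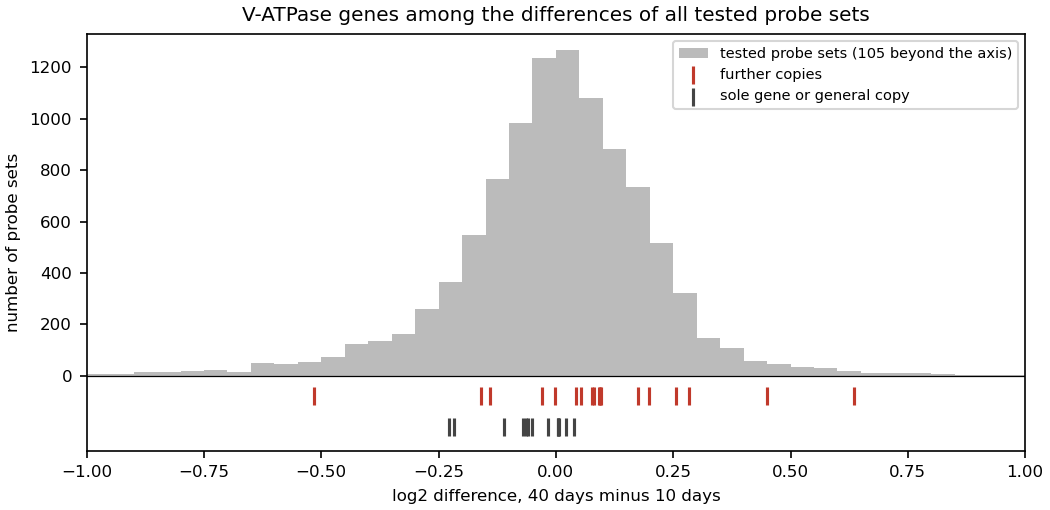
Histogram of the log2 difference between 40 and 10 days over the tested probe sets (grey, 0.05 log2 per bar, 105 probe sets beyond the axis). Ticks below the axis mark the 18 further copies (upper, red) and the 13 general copies (lower, dark) of the V-ATPase, which lie between -0.52 and 0.64.

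For most of the general V1 copies the ages lay within a few hundredths of a log2 unit of each other. *Vha55*, the ATP-binding subunit B, measured 12.93, 12.96 and 12.99 at 40 days against 13.04, 13.05 and 12.96 at 10 days (replicate numbers 1 to 3), a difference of -0.06 ± 0.05 (SE). *Vha26* (E), *Vha13* (G), *Vha36-1* (D) and *Vha14-1* (F) differed by 0.00, 0.01, 0.00 and 0.02, with SE from 0.04 to 0.05, and the stalk subunit H, *VhaSFD*, by -0.06 ± 0.05. For *Vha13* all 6 samples lay between 14.19 and 14.24. The ages overlapped for each of these 6 genes.

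The V1 gene with the lowest difference was *Vha44*, which encodes the stalk subunit C. It measured 11.72, 11.90 and 11.78 in the 40-day samples, against 12.03, 12.12 and 11.93 in the 10-day samples. The highest 40-day value, 11.90, was just under the lowest 10-day value, 11.93. The difference was -0.23 ± 0.05 (log2 ± SE, limma unadjusted p = 0.00892, adjusted p = 0.103). The probe set of *Vha44*, like those of *Vha55*, *Vha26*, *Vha100-1*, *Vha100-2* and *VhaAC45*, carries the suffix that Affymetrix gives to probes shared by several transcripts.

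Of the 4 further V1 copies 3 had a difference above 0. *Vha68-3*, a copy of the catalytic subunit A, measured 10.88, 10.92 and 10.99 at 40 days, against 10.52, 10.58 and 10.84 at 10 days. The older samples all lay above the younger ones, and the difference was 0.28 ± 0.06 (limma unadjusted p = 0.00779, adjusted p = 0.10). *Vha36-2*, a copy of the axle subunit D, measured 9.36, 9.42 and 9.33 at 40 days, against 9.02, 9.08 and 9.25 at 10 days. It did not overlap either, with a difference of 0.26 ± 0.08 (unadjusted p = 0.0267, adjusted p = 0.156). Its smallest gap was in the samples of number 3, where the pair differed by 0.08. *Vha36-3*, the other copy of D, had a difference of -0.16 ± 0.09 with overlapping ages, and *Vha14-2* (F) one of 0.08 ± 0.08.

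In V0 the proton path subunit a showed the lowest difference of the whole set. *Vha100-4*, the midgut copy, measured 7.06, 6.87 and 7.19 in the 40-day samples, against 7.58, 7.53 and 7.55 in the 10-day samples. The 10-day samples agree within 0.02 (SD), and every 40-day sample lay below them. The difference was -0.52 ± 0.09 (95% interval -0.74 to -0.29), or 0.70-fold, with limma unadjusted p = 0.00216 and adjusted p = 0.0669. With a robust variance estimate it passed, at adjusted p = 0.0483. The midgut marker genes measured beside it gave 3 differences above 0 and 2 below, with a median of 0.02 over 5 genes. All 5 are protease genes, and the part of midgut tissue in the *Vha100-4* difference was not tested. The other copies of a had differences of -0.05 ± 0.06 (*Vha100-2*), 0.00 ± 0.07 (*Vha100-1*), 0.09 ± 0.07 (*Vha100-3*) and 0.09 ± 0.08 (*Vha100-5*), all with overlapping ages.

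The 2 genes of the ring subunit c'' had differences of opposite sign. *VhaPPA1-2* measured 8.47, 8.46 and 8.42 in the 40-day samples, against 7.57, 7.81 and 8.07 in the 10-day samples. The older samples were close together and all above the younger, which were spread with an SD of 0.25. The difference was 0.64 ± 0.12 (95% interval 0.33 to 0.95), or 1.55-fold, with limma unadjusted p = 0.00349 and adjusted p = 0.0771. With a robust variance estimate it passed, at adjusted p = 0.0494. *VhaPPA1-1*, the general copy, measured 12.85, 13.08 and 12.96 at 40 days, against 13.06, 13.33 and 13.16 at 10 days. The ages overlapped, but within each replicate number the 40-day sample was lower by a like amount. Its paired difference was -0.22 ± 0.04 (unadjusted p = 0.00352, adjusted p = 0.0771), and without pairing the adjusted p was 0.405.

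**Figure D3:**
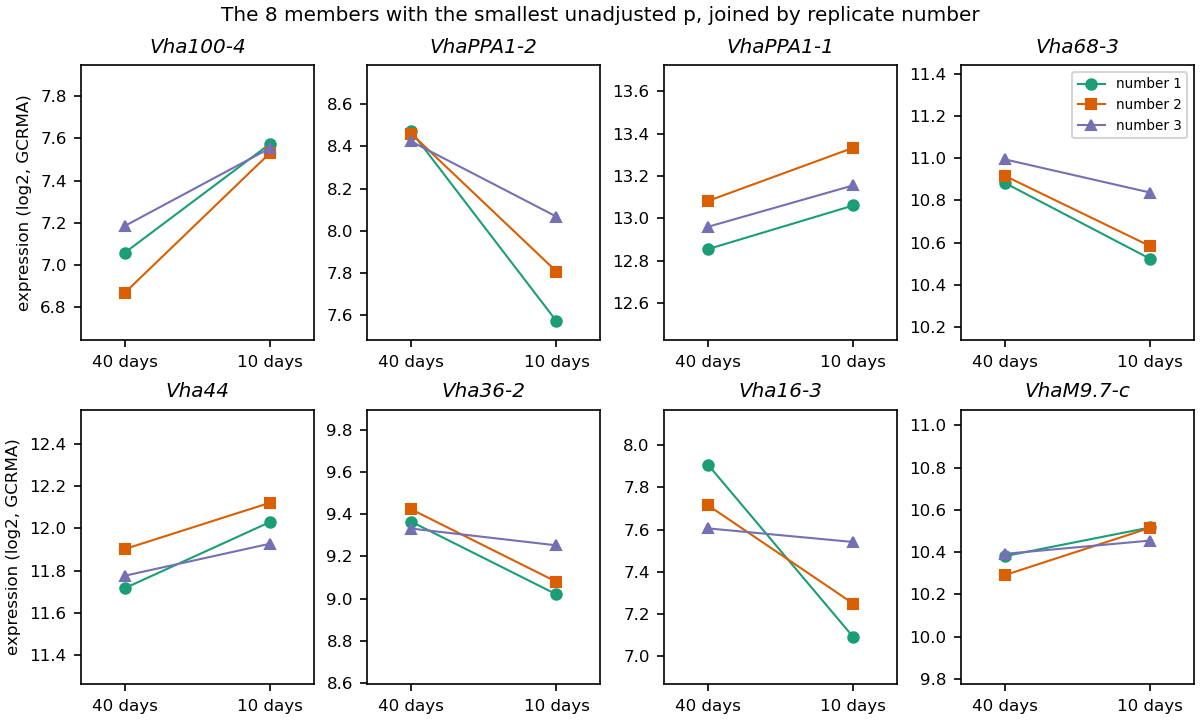
Log2 level (y axis, with the same span in each panel) in the 40-day (left) and 10-day (right) sample of each replicate number, joined by a line, for the 8 members with the smallest unadjusted p. All 3 lines run the same way in each panel, with *VhaPPA1-2*, *Vha68-3*, *Vha36-2* and *Vha16-3* higher and *Vha100-4*, *VhaPPA1-1*, *Vha44* and *VhaM9.7-c* lower at 40 days.

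The proton-carrying ring subunit c gave little difference in its general copy. *Vha16-1* measured 14.64, 14.73 and 14.69 at 40 days, against 14.64, 14.77 and 14.71 at 10 days, a difference of -0.02 ± 0.03. Its second probe set gave -0.05 ± 0.06 (limma adjusted p = 0.648). *Vha16-3* measured 7.91, 7.72 and 7.61 at 40 days, against 7.09, 7.25 and 7.54 at 10 days. The ages did not overlap, yet the pair of number 1 differed by 0.82 and that of number 3 by 0.06. The difference was 0.45 ± 0.15 (unadjusted p = 0.0353, adjusted p = 0.173). Its neighbour *Vha16-2* had a difference of 0.05 ± 0.07, and *Vha16-4* and *Vha16-5* had 0.18 ± 0.09 and 0.10 ± 0.08, all with overlapping ages.

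The remaining V0 and accessory genes had differences from -0.14 to 0.20. *VhaM9.7-c*, a copy of the small subunit e, measured 10.38, 10.29 and 10.39 at 40 days, against 10.52, 10.52 and 10.45 at 10 days. The older samples were all under the younger ones, by -0.14 ± 0.06 (unadjusted p = 0.0676, adjusted p = 0.231). *VhaM9.7-a*, *VhaM9.7-b* and *VhaM9.7-d* had differences of 0.04, 0.04 and -0.03. For subunit d, *VhaAC39-1* had -0.11 ± 0.05 and was lower at 40 days in all 3 pairs, while *VhaAC39-2* had 0.20 ± 0.11, most of it from the pair of number 1. That copy measured 7.04, 6.71 and 6.64 at 40 days, against 6.59, 6.55 and 6.66 at 10 days. The accessory genes *VhaAC45* and *VhaAC45RP* had -0.07 ± 0.04 and 0.08 ± 0.06, with the same direction in all 3 pairs for each.

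**Figure D4:**
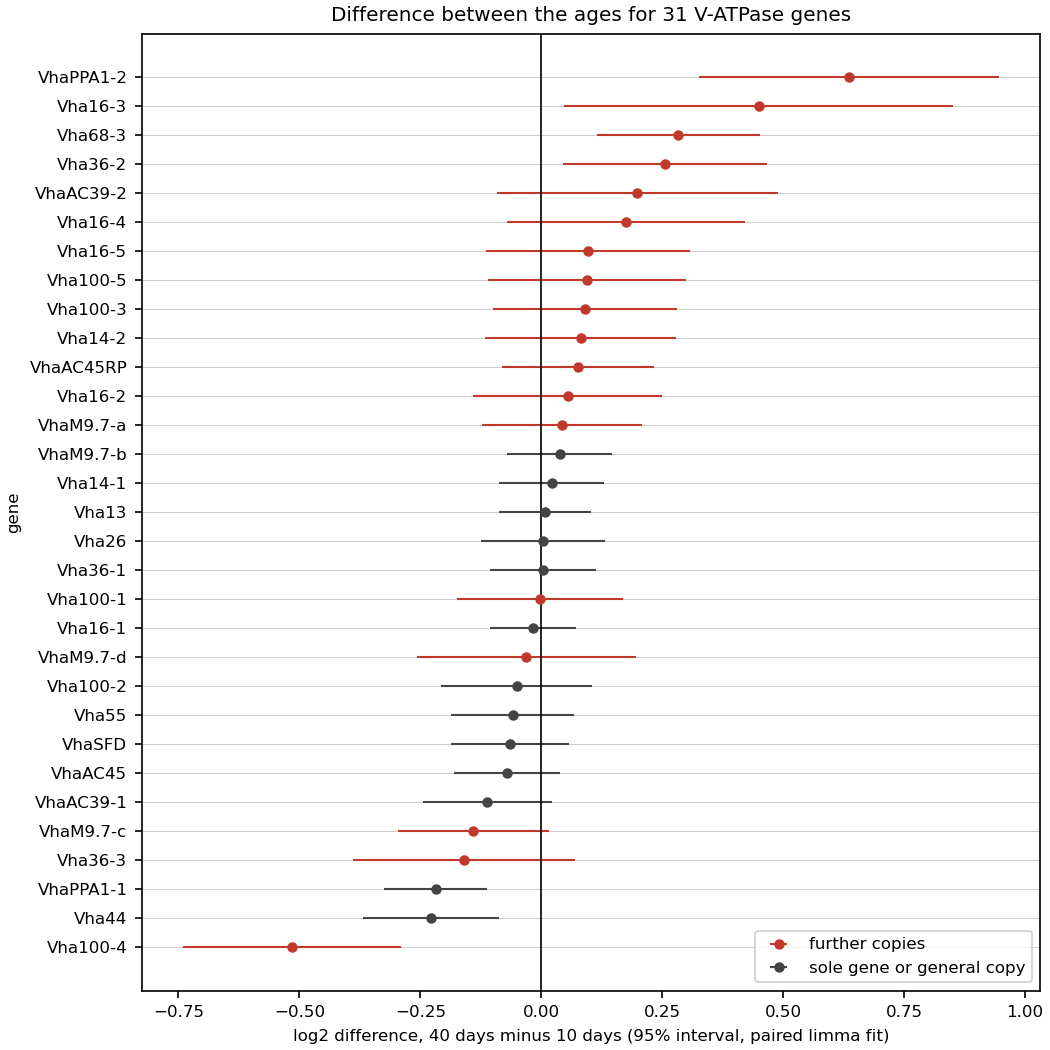
Log2 difference between 40 and 10 days (point) with its 95% interval (bar) from the paired limma fit, for the 13 general copies (dark) and the 18 further copies (red), ordered by size. The intervals of 7 genes leave out 0, none passed after adjustment, and none reaches a 2-fold change.

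By kind of copy, the 13 general copies had a median difference of -0.05, with 5 above 0 and 8 below, and the 18 further copies one of 0.09, with 13 above and 5 below. The median over all tested probe sets was 0.01, and 51.8% lay above 0. Direction was the same in all 3 pairs for 5 general copies, all lower, and for 7 further copies, 5 higher and 2 lower. Over both kinds that makes 12 of 31, or 38.7%, against 49.2% of tested probe sets (26.1% higher and 23.2% lower). The split into general and further copies was made with the values known, and no test between the kinds was run.

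Relative to the general copy of its own subunit on the same array, 13 of 17 further copies had a ratio that was on average higher at 40 days. The log2 ratio of *VhaPPA1-2* to *VhaPPA1-1* differed by 0.85 between the ages, by 1.11, 0.90 and 0.55 in numbers 1, 2 and 3. That of *Vha100-4* to *Vha100-2* differed by -0.46, and by -0.36, -0.63 and -0.41 within the numbers. No background share was computed for ratios of other genes, so these counts only describe the 17. Ratios did not overlap between the ages for 6 of them, namely *VhaPPA1-2*, *Vha16-3*, *VhaAC39-2* and *Vha36-2* on the higher side and *Vha100-4* and *VhaM9.7-c* on the lower. For each of these 6 the two-sided exact permutation test over samples gave p = 0.1, the smallest that 3 samples against 3 allow, and adjusted over the 17 ratios the Benjamini-Hochberg p was 0.283. That exact test cannot go below this p with 3 samples per age, and no other test of the ratios was run. Several ratios share a general copy.

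**Figure D5:**
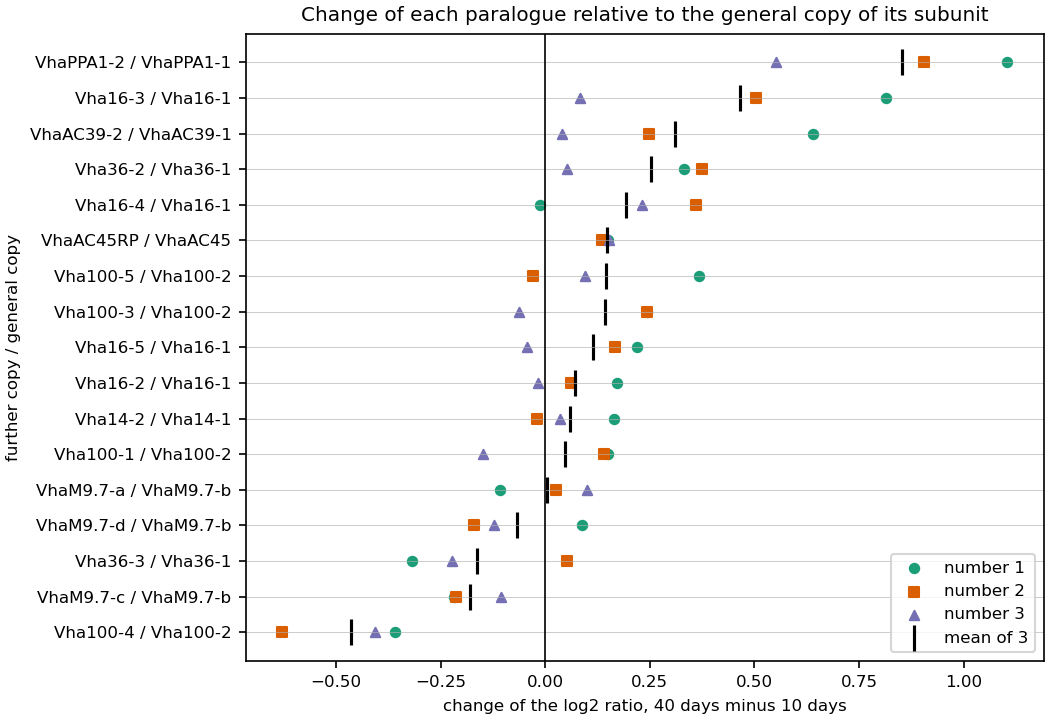
Change between 40 and 10 days of the log2 ratio of each further copy to the general copy of its subunit (x axis), for each replicate number (symbols) and their mean (bar). The ratio for *VhaPPA1-2* lies furthest to the right, at a mean of 0.85, and that for *Vha100-4* furthest to the left, at -0.46.

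Male markers were compared in the same samples. Of the 13 male reproductive tract genes, 10 had a difference above 0, with a median of 0.08. Among them 1 was called, the sperm gene *dj*, which fell by 1.18 ± 0.08 (limma adjusted p = 0.0123). Of all tested probe sets 51.8% lay above 0 and 1.92% were called, 1.3% as lower at 40 days. The testis tubulin gene *betaTub85D* had 0.20 ± 0.04 and the spermatid genes *Mst84Dc* and *Mst87F* 0.15 ± 0.05 and 0.12 ± 0.04 (adjusted p = 0.0906, 0.167 and 0.168). Of the seminal fluid genes, *SP* had 0.17 ± 0.04 (limma adjusted p = 0.112), while *Acp26Aa* and *Acp62F* lay below 0, at -0.01 ± 0.14 and -0.06 ± 0.22. The 6 measured of 8 listed markers of the Malpighian tubule, a tissue rich in V-ATPase, had a median of 0.01. Their differences were spread from -0.27 to 0.66, with 3 on either side of 0 and none called. The part of male or tubule tissue in the V-ATPase differences was not tested.

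The mitochondrial ATP synthase, a related rotary enzyme that makes ATP from a proton gradient, had no called member among 14 genes. Of all tested probe sets 1.92% were called. Its median difference was -0.05. The 4 copies whose symbol ends in L, *ATPsynCF6L*, *ATPsynGL*, *ATPsynbetaL* and *ATPsynepsilonL*, had differences of 0.17, 0.24, 0.30 and 0.22, each higher at 40 days in all 3 pairs. The other 10 genes had differences from -0.15 to 0.03, with 9 below 0. Of all tested probe sets 26.1% were higher in all 3 pairs, and 51.8% had a difference above 0. The 4 copies ending in L were set apart after their values were seen, and their limma adjusted p lay between 0.148 and 0.237.

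Genes that assemble the pump, take part in acidification or lysosomal signalling, or work in the lysosome gave no call either. Of all tested probe sets 1.92% were called, and 51.8% had a difference above 0. Of 17 listed regulators of acidification and lysosomal signalling 11 were measured and 10 tested. Of these 10, 8 had a difference below 0, with a median of -0.11. The Rag GTPase gene *RagC-D* had -0.31 ± 0.06 (limma adjusted p = 0.0798), *ATP6AP2*, an accessory protein of the V-ATPase, -0.15 ± 0.04 (0.128), and *Rbcn-3B*, which helps V1 to join V0, 0.00 ± 0.08 (0.979). *Mitf*, a transcription factor known to act on V-ATPase genes, had -0.18 ± 0.13 (0.436). Of 27 listed lysosome genes 20 were measured and 17 tested. Of these 17, 13 had a difference below 0, with a median of -0.13. A limma unadjusted p under 0.05 was found for 7, all lower, or 41.2% of 17. The share of all tested probe sets was 12.1% lower and 25.1% either way. The 20 measured genes were brighter, with a median level of 10.41 against 7.52 over all probe sets. The shares were not compared at like levels. Among the 7 were the protease gene *cathD* at -0.24 ± 0.05, *Ppt2* at -0.29 ± 0.06, and the mannosidase gene *LManI* at -0.40 ± 0.09 (adjusted p = 0.0791, 0.0907 and 0.103). These values rest on pairing by replicate number, which the labels do not state. In the unpaired limma fit the adjusted p of the 7 genes ran from 0.209 (*cathD*) to 0.702 (*Ppt2*), and that of *RagC-D* was 0.476. Their count at an unadjusted p under 0.05 is not given for the unpaired fit. Of 5 vesicular transmitter transporters, which use the gradient of the pump, *VGlut*, *VGAT* and *prt* lay near the floor. In the paired limma fit *VAChT* and *Vmat* had 0.28 ± 0.09 and -0.12 ± 0.09 (adjusted p = 0.157 and 0.438).

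Levels also differed between the replicate numbers. The samples of number 2 averaged above those of numbers 1 and 3 for 22 of 31 members. The shift was 0.28 for *Vha36-3*, 0.20 for *VhaPPA1-1* and 0.15 for *Vha44* and *Vha100-2*, against -0.21 for *Vha100-3* and -0.14 for *Vha100-4*. For *Vha36-3* this exceeded its difference between the ages. Without both samples of number 2 no member was called, the smallest adjusted p was 0.177, and *Vha100-4* and *VhaPPA1-2* kept their direction.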

How the data were processed

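The authors deposited log2 values made with GCRMA, per the submitters' processing notes, for 15131 probe sets on 6 arrays. GCRMA corrects background, normalizes between arrays and summarises probes, so low values are compressed towards a floor. The sources used here name neither its version nor a filter. RNA input was 150 ng per sample, per the labels. Genes came from the array's annotation (13333 probe sets with 1 gene, 390 with several, 1408 with none), and gene order from the RefSeq table of Release 6 plus ISO1 MT. No sequence table was used.

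The deposited log2 values were fitted with limma 3.58.1 in R 4.3.3 (replicate number plus age, eBayes with trend, two-sided) on the 10286 probe sets with a mean of at least 4, with Benjamini-Hochberg adjustment. The rule that chose the genes asks for pairing by number. After age means were removed, samples of the same number correlated at 0.707, 0.772 and 0.353 over the tested probe sets (threshold 0.1), and at 0.10, 0.49 and 0.05 over the 31 members. The highest correlation with a sample of another number was 0.15, -0.39 and -0.13 over the tested probe sets. Over the members it was 0.14, -0.16 and 0.04. Among the members, then, number 1 correlated more with another number than with its own, and number 3 lay under the threshold. The labels do not say that the numbers pair samples across ages. In simulated data for this comparison (10286 probe sets, 100 changed at each size) the test recovered 38% of changes of 0.5 log2 and 77% of 1. The simulation made 2 false calls among 117. The changed probe sets were drawn from all tested ones, so the shares recovered do not describe the 31 members. The median SD over the 6 arrays was 0.10 for the members and 0.15 for all tested probe sets. Per-sample values are given for the 8 members with the smallest unadjusted p, and for *Vha55*, *Vha16-1* and *VhaAC39-2*, chosen after values were seen. Genes of other lists were to be named by the smallest p, at most 4 per list, or for markers by the highest mean. Those named for their role, the yolk and male tract genes and the fifth transporter were chosen after values were seen. The members and lists were chosen with earlier results of these data known. The number of arrays limits the precision. Tables and plots used Python 3.11.15, pandas 2.3.3, scipy 1.17.1 and matplotlib 3.10.9.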

Additional observations from a re-analysis of the deposited data

How the results depend on the processing

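Of 12 alternatives, 11 left the count of called V-ATPase genes at 0. Robust eBayes gave 2, *Vha100-4* lower (adjusted p = 0.0483) and *VhaPPA1-2* higher (0.0494), and their adjusted p over the 12 alternatives ran from 0.0483 to 0.270 and from 0.0494 to 0.270. Without 1 replicate number, both its samples left out, the count of members called was 0 each time. The 8 members with the smallest unadjusted p kept their sign under the 12 alternatives, as did 23 of 31 members, and the other 8 changed sign at least once without a call. The count of 198 called probe sets was 35 with no replicate block, 0 with no filter on dim probe sets (2385 at an unadjusted p under 0.05), 119 without a trend, 395 with the robust fit, and from 7 to 118 without 1 replicate number. The block changed no call among the members. The median difference over the members ran from -0.01 to 0.02 without 1 replicate number and was 0.04 after quantile normalization. No member fell under the background threshold at 5 or on the mean of all probe sets. The count of 0 called among the 43 tested genes of the regulator, lysosome, transporter and ATP synthase lists did not change under 11 alternatives chosen after seeing the data. The planned comparison of protein and promoter sequences was not run.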
